A study of Mus musculus with 42 samples.

Results

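This account follows 6 genes of red blood cells, of 55487 gene identifiers in the count tables, through sorted leukaemia cells of 21 mice. The adult alpha-globin genes Hba-a1 and Hba-a2, the adult beta-globin genes Hbb-bs and Hbb-bt, the anion exchanger Slc4a1 and the haem synthesis gene Alas2 were taken by name as a signal of red cell RNA carried along with the sorted cells. They were chosen by their measured values, after earlier results of these data had shown the globin share of mRNA counts in every group and the fall of the globin genes, with Slc4a1 in footprints, in mice given chemotherapy on a diet without branched chain amino acids (BCAA). Those values are therefore given here as a description. The 6 identifiers were found in both tables. Each mouse carried MLL-AF9 acute myeloid leukaemia cells, which express green fluorescent protein (GFP) and luciferase and were grown from the cells of 1 ill mouse. The male recipients, labelled wild type and aged 8 to 10 weeks, received the cells by vein without preconditioning, so their own blood formation was not ablated first. Of these mice, 5 ate the amino acid (AA) diet and received vehicle, 4 ate the AA diet and received 5+3, 5 ate the BCAA-free diet and received vehicle, and 7 ate the BCAA-free diet and received 5+3. The 5+3 schedule was cytarabine, 100 mg/kg a day over 5 days, joined for the initial 3 days by doxorubicin, 3 mg/kg a day. Marrow was treated for 5 min with a buffer that lyses red cells, and viable GFP-positive cells were sorted. Each sort gave 1 mRNA library (Smart-seq2, which copies polyadenylated RNA) and 1 library of ribosome footprints, the short mRNA pieces shielded by ribosomes, for 42 libraries in all.

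Haemoglobin is a tetramer of alpha and beta chains, each holding a haem group. Red cell precursors in the marrow fill themselves with globin mRNA, and reticulocytes, which have lost the nucleus, still carry that mRNA on ribosomes. Alas2 encodes the erythroid enzyme of the first step of haem synthesis, and Slc4a1 encodes band 3, the chloride-bicarbonate exchanger that anchors the membrane skeleton of the red cell. Whether the leukaemia cells themselves held any globin mRNA was not tested.

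The globin genes sit in 2 clusters on build GRCm38.p6. Hbb-bt (ENSMUSG00000073940, chr7:103812524-103813923) and Hbb-bs (ENSMUSG00000052305, chr7:103826523-103827928) lie next to each other, as do Hba-a1 (ENSMUSG00000069919, chr11:32283672-32284486) and Hba-a2 (ENSMUSG00000069917, chr11:32296492-32297310). Slc4a1 (ENSMUSG00000006574) is at chr11:102348820-102365281 and Alas2 (ENSMUSG00000025270) at chrX:150547417-150570622. The 250 bases before the annotated start of 5 of the 6 genes were read from RefSeq, and Slc4a1 had no match. They are shown because the members moved together and because the alpha-globin copies are alike to the base. The Hba-a2 window equals that of Hba-a1 over 247 bases, with a shift of 3 bases. Capitals mark GATA motifs (AGATAA or its variant AGATAG, and likewise TGATAA or its variant TGATAG), the CACCC box, the CCAAT box and the letters TATAA, each searched on both strands.
Hba-a1 (chr11:32283422-32283671, plus strand): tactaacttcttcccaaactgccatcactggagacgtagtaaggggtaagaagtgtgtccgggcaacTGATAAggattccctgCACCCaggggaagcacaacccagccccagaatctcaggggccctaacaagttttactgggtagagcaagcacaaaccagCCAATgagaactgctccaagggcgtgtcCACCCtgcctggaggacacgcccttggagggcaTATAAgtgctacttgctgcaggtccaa
Hbb-bs (chr7:103827929-103828178, minus strand): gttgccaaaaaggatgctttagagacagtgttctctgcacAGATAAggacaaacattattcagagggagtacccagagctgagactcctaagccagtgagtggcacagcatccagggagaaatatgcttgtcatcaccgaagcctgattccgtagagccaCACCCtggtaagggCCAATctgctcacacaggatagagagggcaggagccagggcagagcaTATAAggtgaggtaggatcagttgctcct
Hbb-bt (chr7:103813924-103814173, minus strand): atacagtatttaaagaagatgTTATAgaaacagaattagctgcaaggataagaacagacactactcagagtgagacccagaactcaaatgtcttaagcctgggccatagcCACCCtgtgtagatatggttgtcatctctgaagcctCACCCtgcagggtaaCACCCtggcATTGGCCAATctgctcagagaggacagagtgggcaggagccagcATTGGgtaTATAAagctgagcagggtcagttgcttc
Alas2 (chrX:150547167-150547416, plus strand): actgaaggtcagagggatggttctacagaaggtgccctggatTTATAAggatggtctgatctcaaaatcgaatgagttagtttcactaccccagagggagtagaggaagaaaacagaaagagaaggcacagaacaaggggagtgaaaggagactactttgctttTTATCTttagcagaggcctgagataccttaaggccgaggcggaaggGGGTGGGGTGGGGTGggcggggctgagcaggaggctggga
A GATA motif, the letters bound by GATA1, was present in 4 of these 5 windows (not in Hbb-bt) and in 26.5% of the 32851 mouse promoter windows of that length. A CACCC box, bound by KLF1, was present in 5 of 5 and in 52.0% of all windows. CCAAT was found in 4 of 5 (not in Alas2), against 33.8%, and TATAA in 5 of 5, against 22.8%. In the 4 globin windows TATAA began 27 to 30 bases before the start on the plus strand of the gene. In Hbb-bt a pair of CCAAT matches on opposite strands lies side by side, and TATAA matches on opposite strands overlap in Alas2. The alpha-globin windows, alike over 247 bases, are both counted in these tallies, so they are not separate sequences. These matches describe letters and carry no measurement of binding.

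The mRNA libraries held 30996200 to 70437713 counts in genes and the footprint libraries 2697092 to 8863472. Levels are given as CPM, a gene's counts scaled to a common library total, so 3 counts equal at most 0.0968 CPM in mRNA and 1.11 CPM in footprints. A set of 4 mRNA libraries (BCAA-free vehicle replicates 1, 2 and 5 and BCAA-free 5+3 replicate 7) stood apart from the rest in an earlier look at these data. Some of the results that rest on them are also given without them. Myeloid leukaemia markers summed to 10220 to 32560 CPM of mRNA in every library, against at most 122 CPM for the 4 globin genes. In such bulk samples, fewer red cells and less RNA per red cell cannot be told apart. The libraries of the AA vehicle mice carry a name suffix that the other groups lack, and whatever it marks cannot be told apart from that group.

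The footprint counts of the globin copies have to be read together. The mature alpha-globin mRNAs are nearly identical, and Hba-a1 and Hba-a2 received almost the same number of footprints in every library. Their counts were equal in 6 of 21 libraries and differed by at most 6 reads, with pair sums of 12 to 459. That difference was never more than 0.406 times the square root of the pair sum, where separate and equal counts would scatter with an SD of 1 on that scale. In mRNA the copies were unequal: Hba-a1 had 2.17 to 29.0 times the counts of Hba-a2, with a median of 3.85. The beta-globin copies were also closer in footprints than in mRNA, with mRNA counts of Hbb-bs at 1.20 to 7.35 and footprints at 1.00 to 1.50 times those of Hbb-bt. Their footprints differed by 0 to 24 reads, at most 1.51 and in the median 0.629 times the root of the pair sum. Separate counts could also give differences of that size. Hbb-bs footprints were never below those of Hbb-bt, and their median ratio was 1.09, against 2.54 in mRNA. Whether the beta-globin copies shared footprint reads was not tested. The alpha-globin footprint values are read here as 1 measurement, and whether a read was counted at both copies is not given in the sources used here. Counts of members in footprints, such as 5 of 5, still list both alpha-globin copies. With 1 copy of each pair in place of both, the differences between groups in footprints changed by at most a few hundredths on the log2 scale, for example from -3.29 to -3.25 for 5+3 against vehicle on the BCAA-free diet.

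**Figure D1:**
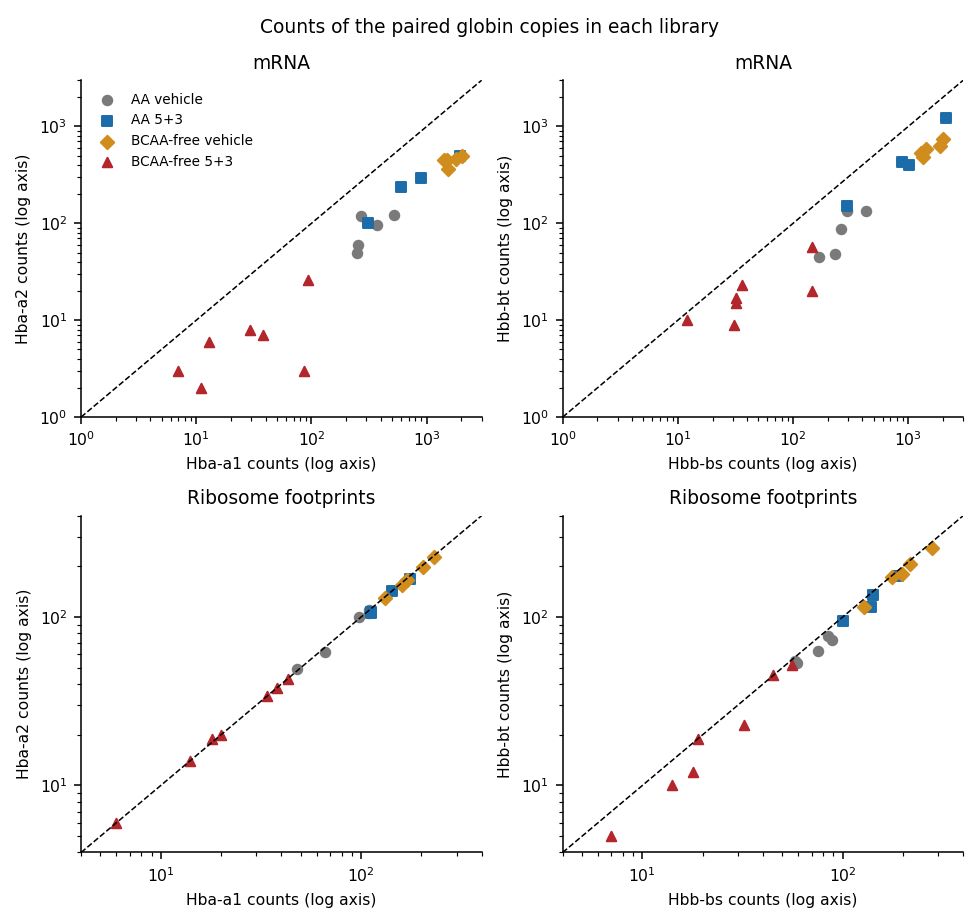
Counts of Hba-a2 against Hba-a1 (left) and of Hbb-bt against Hbb-bs (right) in the mRNA (top) and footprint (bottom) library of each of 21 mice, both axes logarithmic, with the dashed line at equal counts. The mRNA points lie below the line, with Hba-a1 at 2.17 to 29.0 times Hba-a2, while the footprint points of Hba-a1 and Hba-a2 lie on it, at most 6 reads apart.

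Alpha-globin mRNA was highest in BCAA-free vehicle mice and lowest in BCAA-free 5+3 mice. Hba-a1 mRNA stood at 5.97, 4.74, 12.1, 4.90 and 12.0 CPM in the 5 AA vehicle mice. In the AA 5+3 mice it stood at 16.1, 7.82, 14.2 and 39.9 CPM. In the BCAA-free vehicle mice it reached 44.9, 31.7, 27.7, 27.0 and 43.8 CPM. The 7 BCAA-free 5+3 mice ranged from 0.161 to 2.39 CPM, with a median of 0.555, below every other library. Its mean of 0.805 ± 0.838 CPM (SD, n = 7) there compared with 35.0 ± 8.71 (n = 5) with vehicle. Hba-a2 mRNA followed the same order at a lower level, with means of 2.14 ± 1.02, 5.93 ± 3.20, 9.34 ± 1.74 and 0.169 ± 0.224 CPM in AA vehicle, AA 5+3, BCAA-free vehicle and BCAA-free 5+3 mice. In the last group its counts were only 2 to 26 reads.

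In footprints the alpha-globin rows ranked the groups in the same order over a narrower range. Hba-a1 footprints stood at 36.3, 38.9, 12.7, 7.77 and 21.0 CPM in the AA vehicle mice and at 23.1, 23.9, 36.3 and 26.5 CPM after 5+3 on that diet. On the BCAA-free diet with vehicle they stood at 42.9, 28.9, 28.9, 50.8 and 35.5 CPM. The 7 mice given 5+3 on the BCAA-free diet had 1.77 to 6.27 CPM, with a median of 4.29, from 6 to 43 reads. This group lay below all others, and the other 3 groups overlapped. The 2 AA vehicle mice with the highest values, replicates 1 and 2, also had the shallowest footprint libraries of that group. Their mRNA gave no such rank, at 5.97 and 4.74 CPM.

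Beta-globin showed the same pattern. Hbb-bs mRNA stood at 5.14, 4.88, 10.1, 3.31 and 9.49 CPM in AA vehicle mice and at 18.6, 7.45, 20.9 and 43.2 CPM after 5+3 on the AA diet. BCAA-free vehicle mice had 41.7, 29.5, 24.0, 25.4 and 48.9 CPM. After 5+3 on that diet the lowest, median and highest values were 0.276, 0.612 and 3.78 CPM, and the highest of them exceeded the lowest AA vehicle mouse. Hbb-bt mRNA averaged 2.20 ± 1.46, 11.6 ± 9.47, 12.6 ± 3.56 and 0.405 ± 0.278 CPM in the same 4 groups. AA 5+3 and BCAA-free vehicle mice were thus level for Hbb-bt, where the spread of AA 5+3 mice (3.77 to 25.3 CPM) covers the gap. Hbb-bs footprints averaged 19.4 ± 10.2, 28.6 ± 5.62, 41.2 ± 10.1 and 4.49 ± 2.02 CPM, and Hbb-bt footprints 16.7 ± 7.87, 25.9 ± 3.88, 38.7 ± 10.3 and 3.88 ± 2.27 CPM. In footprints the BCAA-free 5+3 mice were again below every other library for both genes.

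Slc4a1, the membrane anion exchanger, was present at about 1 CPM. Its mRNA stood at 0.507, 0.226, 1.00, 0.373 and 0.871 CPM in AA vehicle mice, and at 1.54, 0.704, 1.43 and 1.66 CPM after 5+3 on the AA diet. In BCAA-free vehicle mice it stood at 1.45, 1.32, 2.19, 0.437 and 0.0245 CPM. The last value is 1 read, in replicate 5, a library that stood apart. The 7 BCAA-free 5+3 mice had 1 to 7 reads, with a median of 0.107 CPM. Its footprints numbered 1 to 11 reads in AA vehicle mice, 8 to 19 in AA 5+3 mice, 8 to 27 in BCAA-free vehicle mice and 0 to 5 in BCAA-free 5+3 mice. Their means were 1.08 ± 0.836, 2.49 ± 0.739, 3.57 ± 1.57 and 0.309 ± 0.213 CPM, the same order as the globins. One BCAA-free 5+3 footprint library had no Slc4a1 read.

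Alas2, the erythroid haem synthesis gene, had few reads in every group, as did Slc4a1. Its mRNA averaged 0.429 ± 0.349 CPM in AA vehicle, 0.437 ± 0.209 in AA 5+3, 1.20 ± 1.02 in BCAA-free vehicle and 0.144 ± 0.102 in BCAA-free 5+3 mice. Ranked by mean, each group overlapped with the next, but BCAA-free vehicle mice (0.496 CPM or more) did not overlap with BCAA-free 5+3 mice (at most 0.276). AA vehicle and AA 5+3 did not differ beyond their spread. The BCAA-free vehicle mean rests on replicate 5, at 2.96 CPM, where the other 4 mice had 0.496 to 1.10. Alas2 footprints numbered 0 to 7 reads per library, too few for the test, so Alas2 has no footprint change here.

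**Figure D2:**
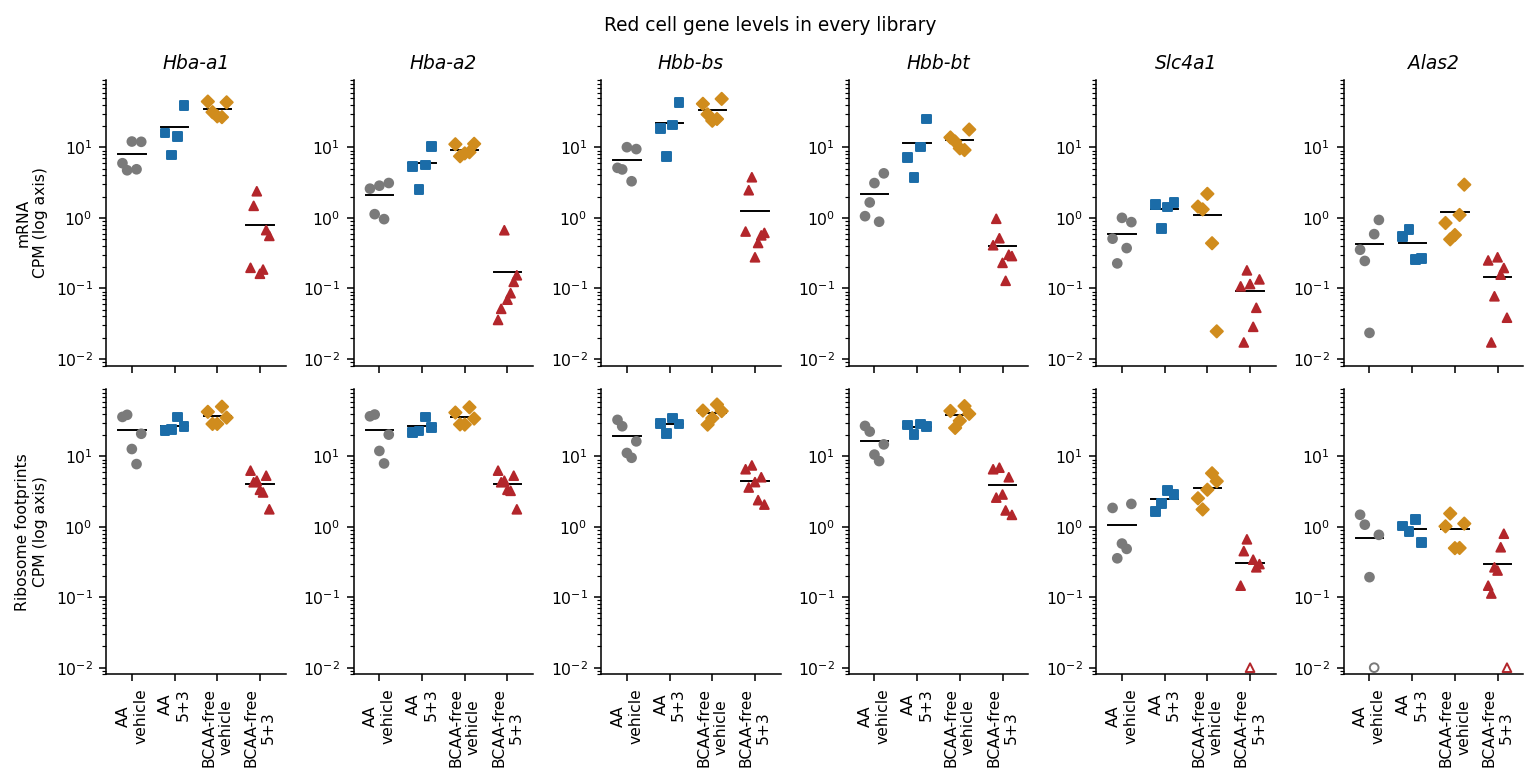
CPM of each member (columns) in mRNA (top) and footprint (bottom) libraries by group, 1 point per mouse on a logarithmic axis, with a bar at the group mean; open points at the bottom are libraries with 0 reads. For the alpha-globin genes the red triangles of the BCAA-free 5+3 mice lie lowest, and for beta-globin mRNA they overlap with AA vehicle mice, with Hba-a1 mRNA at 0.161 to 2.39 CPM against 4.74 CPM or more in every other library.

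Summed over the 4 globin genes, mRNA averaged 90.8 ± 24.4 CPM in BCAA-free vehicle, 59.6 ± 41.5 in AA 5+3, 18.9 ± 9.01 in AA vehicle and 2.63 ± 2.53 in BCAA-free 5+3 mice. The 3 highest groups overlapped each with the next. The lowest group did not overlap with AA vehicle, its highest mouse being at 7.35 and the lowest AA vehicle mouse at 10.1 CPM. In footprints the order was the same, at 153.9 ± 38.6, 108.5 ± 20.2, 82.8 ± 45.8 and 16.6 ± 6.89 CPM, and AA 5+3 and AA vehicle did not differ beyond their spread. The balance of alpha to beta reads in mRNA was 1.18 ± 0.210 in AA vehicle, 0.780 ± 0.123 in AA 5+3, 0.973 ± 0.0954 in BCAA-free vehicle and 0.573 ± 0.241 in BCAA-free 5+3 mice. In footprints it was 1.23 ± 0.264, 0.995 ± 0.165, 0.931 ± 0.0947 and 1.07 ± 0.303. These ratios compare reads within a library and are not scaled for gene length.

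After 5+3 on the AA diet, 5 of 6 members had higher mRNA than with vehicle, and none passed the test. The globin shares of mRNA in these groups were known when the members were chosen, so the p values of the globin genes are a description. The test was edgeR's quasi-likelihood test with Benjamini-Hochberg adjustment over all genes, and the call was an adjusted p under 0.05. It called 0.0189% of 21114 genes higher and 0.0426% lower. Hbb-bt changed most, by 2.49 ± 0.60 on the log2 scale (SE), with an adjusted p of 0.221. Hbb-bs gave 1.84 ± 0.63 (0.512), Hba-a2 1.52 ± 0.62 (0.684), Hba-a1 1.37 ± 0.63 (0.789) and Slc4a1 1.18 ± 0.82 (0.9995), with the adjusted p in parentheses. Alas2 gave -0.01 ± 0.85, with an adjusted p of 0.9996. At an unadjusted p under 0.05, 4 members were higher, and DESeq2 called 1, Hbb-bt, with an adjusted p of 0.00659. Shares of all genes at an unadjusted p or by DESeq2 are not given here or below, so such counts have no background beside them. Over its 15 alternatives the adjusted p of Hbb-bt ran from 0.00659 to 0.578.

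In footprints on the AA diet, 5 of the 5 members tested were above vehicle and none passed, where 3.49% of 15723 genes were called higher and 3.12% lower. Slc4a1 gave 1.28 ± 0.47 on the log2 scale, with an adjusted p of 0.103 from edgeR. Without AA vehicle replicate 5 this became 1.78, with an adjusted p of 0.0453, and over its alternatives it ran from 0.0453 to 0.243. The globin genes gave 0.30 ± 0.39 (Hba-a2) to 0.75 ± 0.38 (Hbb-bt), with adjusted p from 0.723 to 0.257. At an unadjusted p under 0.05, 1 member was higher, and DESeq2 called 0. The summed globin share was 2.89-fold higher in mRNA and 1.49-fold higher in footprints after 5+3 on this diet (means of log2 shares), against pooled SDs of 0.843 and 0.682 on the log2 scale.

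After 5+3 on the BCAA-free diet, the comparison from which the members were taken, all 6 were lower in mRNA. The adjusted p was under 0.05 for 6 of 6, where 4.23% of genes were called lower and 4.33% higher. Hba-a2 differed by -5.87 ± 0.63 on the log2 scale, Hba-a1 by -5.49 ± 0.63, Hbb-bt by -4.98 ± 0.57, Hbb-bs by -4.81 ± 0.60, Slc4a1 by -3.62 ± 0.76 and Alas2 by -3.14 ± 0.76. The alpha copies were thus 45.0-fold and 58.4-fold lower and Alas2 8.79-fold lower. Without the 4 libraries that stood apart these values were -5.57, -4.91, -4.34, -4.08, -3.89 and -2.28 in the same order. In footprints, 5 of 5 were called, where 11.9% of genes were called lower and 8.76% higher. The 5 differences were close to each other, from -3.11 ± 0.38 (Hba-a2) to -3.31 ± 0.44 (Slc4a1), or 8.66-fold to 9.90-fold. The summed globin share was 47.2-fold lower in mRNA and 9.80-fold lower in footprints. The globin genes, and Slc4a1 in footprints, were taken for this fall, so the calls in this comparison are a description and no support.

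Among mice given 5+3, the BCAA-free diet went with lower values than the AA diet. In mRNA, Hba-a2 differed by -5.17 ± 0.63 on the log2 scale, Hbb-bt by -4.85 ± 0.58, Hba-a1 by -4.62 ± 0.62, Hbb-bs by -4.18 ± 0.60, Slc4a1 by -3.86 ± 0.79 and Alas2 by -1.56 ± 0.78. The first 5 were called by edgeR (DESeq2 called the 4 globin genes and gave Slc4a1 no adjusted p), where 0.682% of genes were called lower and 0.559% higher. In footprints 5 of 5 were called, at -2.67 ± 0.36 (Hbb-bs) to -2.83 ± 0.48 (Slc4a1), where 15.8% were called lower and 12.5% higher. This comparison shares its low group with the one before it, so its values are no separate support.

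Among vehicle mice the direction was opposite, with more globin on the BCAA-free diet. In mRNA the log2 differences were 2.62 ± 0.58 for Hbb-bt, 2.47 ± 0.62 for Hbb-bs, 2.24 ± 0.62 for Hba-a1, 2.22 ± 0.61 for Hba-a2, 1.56 ± 0.82 for Alas2 and 0.94 ± 0.78 for Slc4a1. None was called by edgeR, which called 0.0% of genes in either direction. An unadjusted p under 0.05 was found for 4 members, and DESeq2 called 4, with no share of all genes given for either count. Without the libraries that stood apart, Hbb-bs gave 1.88, moving by more than its spread between mice. In footprints Slc4a1 differed by 1.76 ± 0.44 and was the 1 member called by edgeR, where 0.642% of genes were called higher and 1.4% lower. At an unadjusted p under 0.05, 3 members were higher in footprints, and DESeq2 called 2. The globin genes differed by 0.72 ± 0.37 (Hba-a2) to 1.29 ± 0.35 (Hbb-bt).

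The difference between the diets in the change after 5+3, taken as an interaction term, was below 0 for every member fitted. In mRNA it ran from -3.12 ± 1.13 on the log2 scale (Alas2) to -7.47 ± 0.83 (Hbb-bt), and the 4 globin genes were called, where 0.0521% of genes were called lower. In footprints it ran from -3.41 ± 0.55 (Hba-a2) to -4.59 ± 0.65 (Slc4a1), and 5 of 5 were called, where 3.8% of genes were called lower. The BCAA-free comparison that chose the members is contained in this term, so it is a description.

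**Figure D3:**
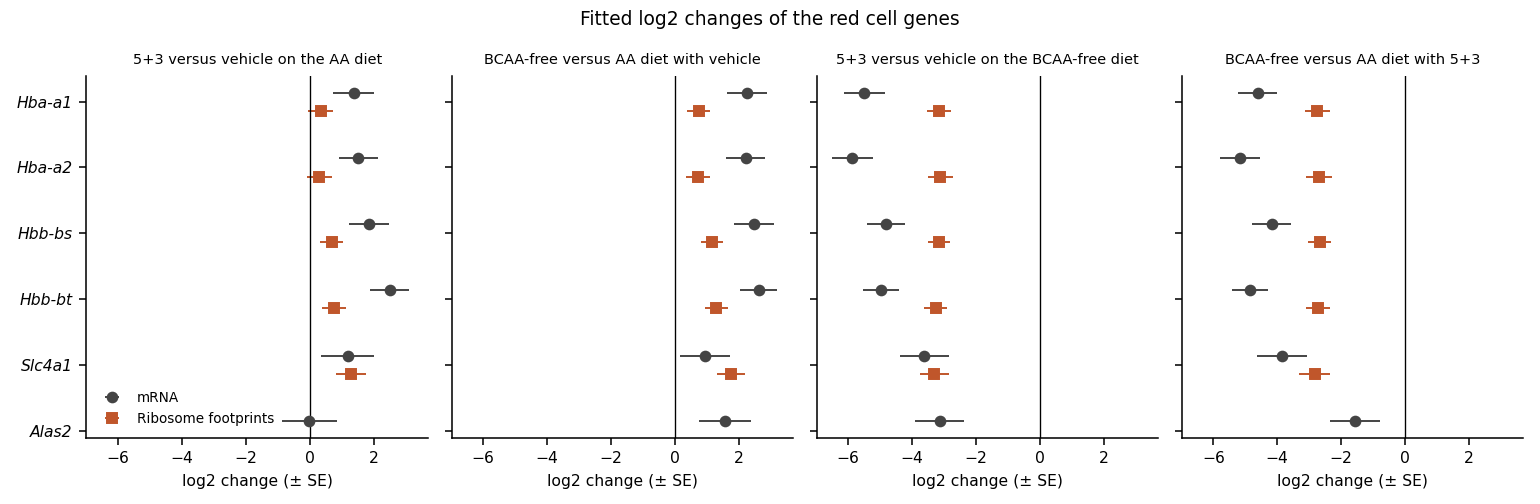
Fitted log2 changes (points, with SE bars) of the 6 members in mRNA and of the 5 tested in footprints, for the 4 comparisons named above the panels. Points lie at or right of 0 for 5+3 on the AA diet and for diet with vehicle, and left of 0 after 5+3 on the BCAA-free diet, where mRNA of Hba-a2 reaches -5.87 and its footprints -3.11.

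Footprints and mRNA moved the same way but by unequal amounts. The ratio of footprint CPM to mRNA CPM, a measure of ribosome load, was 5.36 ± 3.99 for the summed globins in AA vehicle, 2.46 ± 1.32 in AA 5+3, 1.79 ± 0.682 in BCAA-free vehicle and 10.6 ± 7.26 in BCAA-free 5+3 mice. It was thus highest where globin mRNA, its divisor, was lowest, so part of this rank is built into the ratio. Any footprint read counted at both copies of a pair would also raise the ratio. For 5+3 on the AA diet, none of the 5 members tested was called for translational efficiency, the footprint change beyond the mRNA change, with Hbb-bt at -1.48 ± 0.64 and Slc4a1 at 0.25 ± 1.12 on the log2 scale and an adjusted p of 0.9999 for each by edgeR. At an unadjusted p under 0.05 1 member was lower, and edgeR called 0.0% of 12097 genes in either direction. On the BCAA-free diet the same quantity was 1.80 ± 0.58 for Hbb-bt, 2.03 ± 0.58 for Hbb-bs, 2.79 ± 0.68 for Hba-a1 and 3.11 ± 0.63 for Hba-a2, which restates that mRNA was lower by more than footprints were. For Slc4a1 it was -0.07, with mRNA and footprints lower by similar amounts and an SE too wide to place it. The values of the alpha-globin copies rest on nearly equal footprint counts. With as few as 2 mRNA reads of Hba-a2 in a library, a ratio to them carries a large counting error.

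**Figure D4:**
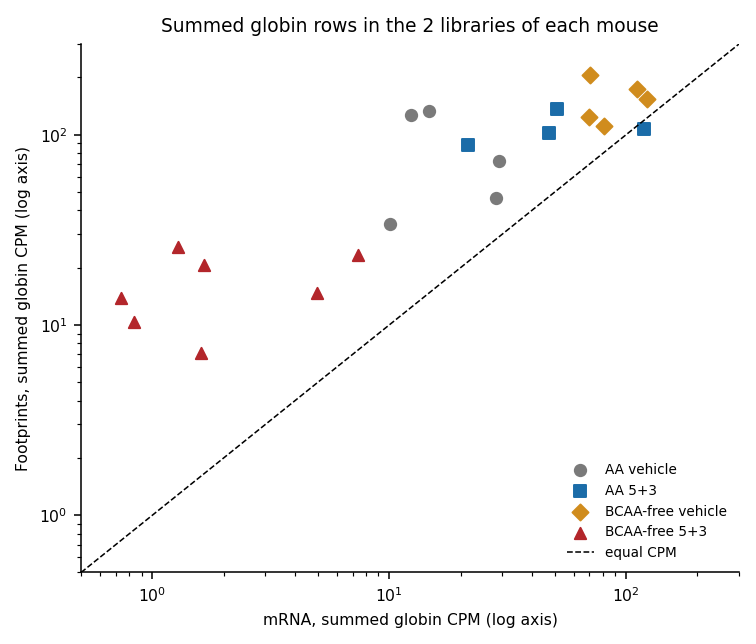
Summed CPM of the 4 globin genes in the footprint library against the mRNA library of the same mouse, 21 mice by group, both axes logarithmic, with the dashed line at equal CPM. The BCAA-free 5+3 mice lie at 0.735 to 7.35 CPM of mRNA and 7.08 to 25.7 CPM of footprints, farther above the line than the BCAA-free vehicle mice.

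Within groups, mice with more globin mRNA did not detectably have more globin footprints. Over 21 mice, deviations from the group mean of the log2 globin share in mRNA and footprints had Pearson's r = 0.199 (permutation within groups, two-sided p = 0.444) and Spearman's rho = 0.181 (p = 0.472). Without the 2 mice farthest from the median mRNA deviation r was 0.0988. Alpha and beta rows within a library kind did vary together. In mRNA r was 0.900 (permutation p = 2e-05) and rho 0.814 (p = 0.00014), and r was 0.839 without 2 mice. In footprints r was 0.872 (permutation p = 1e-05, the smallest these permutations can give) and rho 0.875 (p = 3e-05), and r was 0.827 without 2 mice. These were 3 of 11 relations computed, and Benjamini-Hochberg adjustment over the 11 gave 0.611, 0.00011 and 0.00011 for the Pearson values and 0.599, 0.00077 and 0.00033 for Spearman's. Alpha and beta reads of a library share its depth and its cells.

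Slc4a1 did not detectably follow the globins within groups. Its r with the globin share was 0.0789 in mRNA (permutation p = 0.683, rho = 0.231 with p = 0.299, r = 0.109 without 2 mice) and 0.267 in footprints (permutation p = 0.351, rho = 0.326 with p = 0.245, r = 0.266 without 2 mice). The Benjamini-Hochberg values for Pearson's r were 0.800 and 0.552 and for Spearman's rho 0.470 and 0.449. Slc4a1 rested on 1 to 119 mRNA reads and 0 to 27 footprints per library, which limits such a relation.

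Other red cell genes, in 7 lists with 73 genes, were tested in the same way. After 5+3 on the AA diet, 0 of 64 tested mRNAs passed by edgeR, with 4 at an unadjusted p under 0.05 and 0 by DESeq2. Their median log2 change was 0.22, beside -0.01 over all genes. In footprints 5 of 36 were higher and 2 lower (medians 0.08 and -0.02), against 3.49% and 3.12% of all genes. On the BCAA-free diet, 2 of 64 mRNAs were higher and 6 lower after 5+3 (medians -0.11 and -0.01), against 4.33% and 4.23% of all genes. On that diet 1 of 36 footprints was higher and 4 lower (medians -0.08 and -0.02), against 8.76% and 11.9%. Without the 4 mRNA libraries that stood apart, 0 of the 8 mRNA calls were made, and leaving out single mice gave 2 to 13. Between diets, 0 mRNAs passed with vehicle by edgeR, with 7 at an unadjusted p under 0.05 and 0 by DESeq2, and 1 was lower with 5+3. In footprints 1 was higher with vehicle, against 0.642% of all genes. With 5+3, 1 was higher and 7 were lower in footprints, against 12.5% and 15.8%. The shares for mRNA on the AA diet and between diets are given with the members above.

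Genes of the membrane and its skeleton gave the mRNA calls nearest in kind to the members. On the BCAA-free diet, mRNA of Sptb (beta-spectrin) changed by -2.99 ± 0.93 on the log2 scale after 5+3, with an adjusted p of 0.0481. Ank1, the ankyrin that ties spectrin to band 3, changed by -2.77 ± 0.84 (0.0429), and the water channel Aqp1 by -2.48 ± 0.76 (0.0453). The glucose transporter Slc2a1, which many cell types use, rose by 1.53 ± 0.39 (0.0248). In all, 1 of 19 was higher and 3 lower. In footprints, 4 of the 20 genes could be tested. Xk, a membrane protein that carries a blood group antigen, rose by 0.67 ± 0.17 (adjusted p 0.0145) and Slc2a1 by 0.62 ± 0.17 (0.0286) after 5+3 on the AA diet. With 5+3, both were lower on the BCAA-free than on the AA diet, at -0.59 ± 0.15 (0.00434) and -0.65 ± 0.16 (0.00298). Epb41, protein 4.1, fell by 0.39 ± 0.09 on the log2 scale after 5+3 on the BCAA-free diet (0.00339).

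Late erythroblast genes gave 2 mRNA calls of 10 tested, both lower after 5+3 on the BCAA-free diet. Trim10, which acts in terminal erythroid maturation, changed by -5.34 ± 1.50 (adjusted p 0.0354). Trim10 had 0 reads in 2 of 5 BCAA-free vehicle and 5 of 7 BCAA-free 5+3 libraries, so this size depends on few reads. It was not among the genes called by DESeq2 or in a fit with a block for replicate number. In footprints Bnip3l, which clears mitochondria in reticulocytes and is also expressed elsewhere, was lower after 5+3 on the AA diet (-0.60 ± 0.13, adjusted p 0.00795) and on the BCAA-free diet (-0.59 ± 0.11, 0.000961). Mkrn1 was lower on the AA diet (-0.57 ± 0.16, 0.0260). With 5+3, Fbxo7 (-0.55 ± 0.15, 0.00798) and Xpo7 (-0.32 ± 0.11, 0.0240) had fewer footprints on the BCAA-free diet.

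Haem synthesis genes, most of them active in all cells, gave calls in both directions. Fech mRNA, for the enzyme that inserts iron into haem, rose by 1.94 ± 0.41 after 5+3 on the BCAA-free diet (adjusted p 0.0113), and Slc25a37, the mitochondrial iron importer of erythroid cells, fell by 1.02 ± 0.25 on the log2 scale (0.0183). The other 10 of 12 did not pass by edgeR, and DESeq2 also called Alas1. In footprints Tmem14c was higher after 5+3 on the AA diet (0.34 ± 0.11, adjusted p 0.0488). Between diets with 5+3, Cpox was lower (-0.96 ± 0.16, 0.000120) and Fech higher (0.51 ± 0.12, 0.00330) on the BCAA-free diet. Alas1, the housekeeping counterpart of Alas2, was far more abundant than it, at 381.3 to 707.6 CPM of mRNA in group means.

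The enzymes of the red cell cytosol gave 1 mRNA call by edgeR, Car2. After 5+3 on the BCAA-free diet DESeq2 called Cat and Gpx1 mRNA, and a fit with a block for replicate number called Blvrb and Cat. Car2, a carbonic anhydrase, was lower on the BCAA-free than on the AA diet with 5+3 (-2.20 ± 0.53, adjusted p 0.0367), from means of 13.3 ± 5.22 CPM on the AA diet and 2.91 ± 3.16 CPM on the BCAA-free diet. In footprints Gpx1, glutathione peroxidase, was lower after 5+3 on the BCAA-free diet (-0.33 ± 0.12, 0.0477). Among erythroid transcription factors edgeR called no mRNA of 10 in any of the 4 comparisons, and DESeq2 called Lmo2 lower between diets with 5+3. Klf1 averaged 1.66 ± 1.49 CPM in BCAA-free vehicle and 1.79 ± 0.889 CPM in BCAA-free 5+3 mice, and Gata1 0.779 ± 0.637 and 1.00 ± 0.874 CPM. In footprints E2f2, a cell cycle factor, rose after 5+3 on the AA diet (0.91 ± 0.21, 0.00920) and the BCAA-free diet (0.90 ± 0.19, 0.00229), Ldb1 fell on the BCAA-free diet (-0.50 ± 0.15, 0.0229), and Lmo2 was lower on the BCAA-free diet with 5+3 (-0.27 ± 0.10, 0.0489). The erythropoietin receptor Epor had 0 to 76 mRNA reads and 0 to 3 footprints per library. Of its list, the transferrin receptor Tfrc alone passed, with fewer footprints on the BCAA-free diet with 5+3 (-0.54 ± 0.20, 0.0422).

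The embryonic and minor globins had few reads. Of Hba-x, Hbb-bh1, Hbb-y, Hbb-bh2, Hbq1a and Hbq1b none had enough reads for the test in either kind. Hba-x had at most 2 mRNA reads and Hbb-bh1 and Hbb-y at most 3 in any library. Hbb-bh2 had at most 6, Hbq1a at most 8 and Hbq1b at most 51, the last in a single BCAA-free vehicle library of 5. Each of the 6 had at most 1 footprint in any library.

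**Figure D5:**
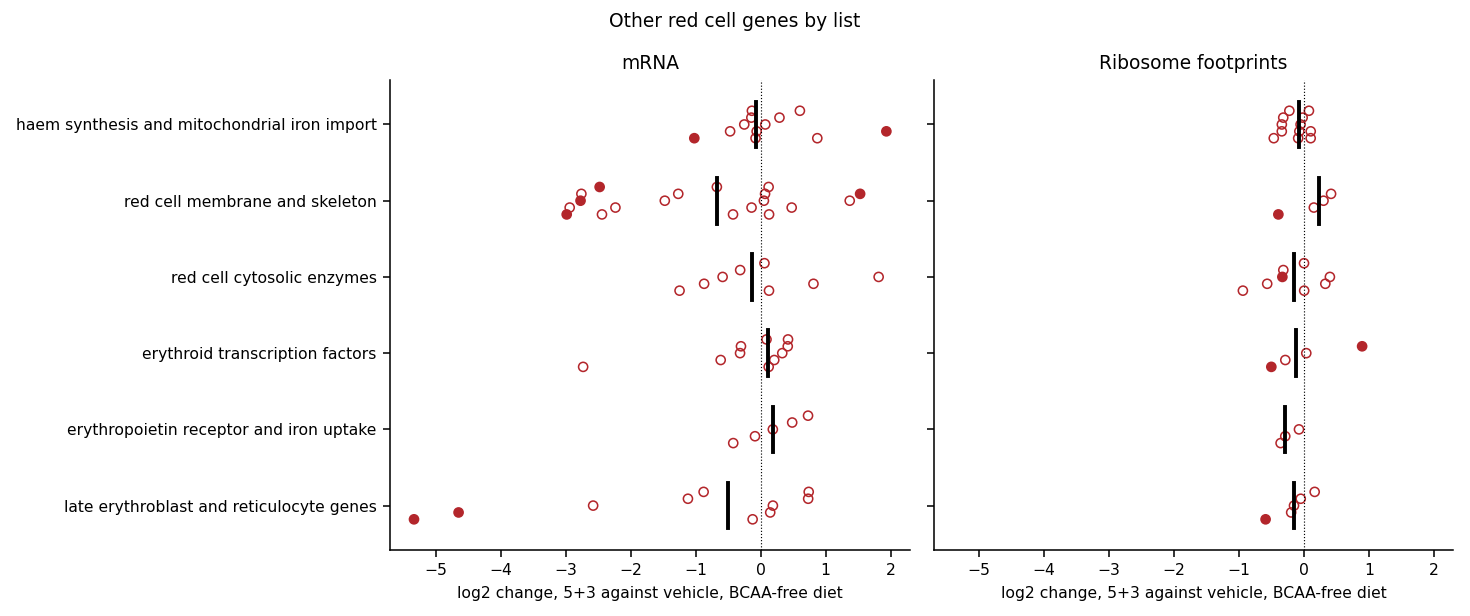
Log2 changes after 5+3 on the BCAA-free diet for the genes tested in each red cell list, in mRNA (left) and footprints (right), with filled points at an adjusted p under 0.05 and a bar at each list's median. Membrane and late erythroblast genes hold 5 of the 6 mRNAs called lower, and Trim10 reaches -5.34, while the footprint changes lie within about 1 log2 unit of 0.

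Markers of mature neutrophils, like the globins, had their lowest mean sums in BCAA-free 5+3 mice. In AA vehicle, AA 5+3 and BCAA-free vehicle mice their mRNA sums averaged 1370 ± 507, 1472 ± 532 and 1626 ± 287 CPM, level within their spread. These markers summed to 1317 to 2008 CPM of mRNA in BCAA-free vehicle mice and 133.2 to 1164 CPM in BCAA-free 5+3 mice. In footprints they summed to 446.5 to 708.0 and 56.9 to 486.9 CPM. Of the 9, 8 were called lower in mRNA and 9 in footprints after 5+3 on the BCAA-free diet, against 4.23% and 11.9% of all genes. Retnlg, a resistin-like gene of mature neutrophils, changed by -4.50 ± 0.51 on the log2 scale in mRNA (adjusted p 4.64e-05) and -3.68 ± 0.40 in footprints (2.52e-05), and the cathelicidin gene Camp by -2.54 ± 0.50 (0.00837) and -1.68 ± 0.54 (0.0362). No marker of the list was at 0 in all libraries. On the AA diet 0 of 9 mRNAs passed by edgeR and 1 of 9 footprints fell, Retnlg at -1.97 ± 0.54 (0.0339), where the globin values lay above vehicle. Within groups the neutrophil sum and the globin share had r = 0.445 in mRNA (permutation p = 0.146, rho = 0.186 with p = 0.490) and r = 0.0888 in footprints (permutation p = 0.750, rho = -0.0182 with p = 0.940). Without 2 mice r was 0.0408 and -0.0205, and the Benjamini-Hochberg values were 0.359 and 0.599 in mRNA and 0.800 and 0.940 in footprints. The part of mature neutrophils in the globin result was not tested.

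Markers of other cells gave few calls, and few could be tested in footprints. In that comparison, at most 1 gene in each direction passed in the lists for megakaryocytes and platelets, eosinophils, basophils and mast cells, B cells, T and NK cells, resident macrophages, stroma and endothelium, and MLL-AF9 leukaemia cells, in either library kind. In footprints the number tested was 1 for megakaryocytes, 2 for B cells and 1 for T and NK cells, and Nkg7, the 1 tested in the last list, was lower (-0.73 ± 0.20, adjusted p 0.0106). In mRNA the macrophage gene Cd5l was higher (3.73 ± 0.95, adjusted p 0.0230), from 0.150 ± 0.188 CPM in BCAA-free vehicle to 2.01 ± 1.16 CPM in BCAA-free 5+3 mice, and Adgre1 lower (-0.94 ± 0.25, 0.0256). Megakaryocyte markers summed to 0.784 to 10.0 CPM of mRNA in BCAA-free vehicle and 3.25 to 10.0 CPM in BCAA-free 5+3 mice. Resident macrophage markers, which include the cells of erythroblastic islands, summed to 129.0 to 183.8 and 115.2 to 184.0 CPM in these groups. Within groups, macrophage markers had r = -0.399 with the globin share in mRNA (permutation p = 0.0924, rho = -0.442 with p = 0.0642, r = -0.497 without 2 mice) and -0.0599 in footprints (permutation p = 0.800, rho = -0.108 with p = 0.642, r = -0.174 without 2 mice). Megakaryocyte markers had r = 0.181 (permutation p = 0.286, rho = 0.278 with p = 0.199, r = 0.0261 without 2 mice) and 0.427 (permutation p = 0.163, rho = 0.429 with p = 0.121, r = 0.670 without 2 mice). Adjusted over the 11 relations, Pearson's p was 0.339 and 0.800 for macrophage and 0.524 and 0.359 for megakaryocyte markers, and Spearman's 0.235, 0.706, 0.438 and 0.333.

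The genes whose levels ran most like the members across the 21 mice included genes of myeloid cells. In mRNA, among 11251 genes, the 8 with the highest Pearson's r to the mean standardised level of the members were Guca1b (0.897), S100a9 (0.891), S100a8 (0.864), Ddit3 (0.860), Sdf2 (0.841), Pagr1a (0.832), Chmp5 (0.832) and G0s2 (0.829). S100a9 and S100a8 encode the calprotectin subunits of neutrophils and monocytes. S100a8 averaged 1610 CPM in BCAA-free vehicle and 377 CPM in BCAA-free 5+3 mice, and 1020 and 2430 CPM in AA vehicle and AA 5+3 mice. Ddit3, a stress transcription factor, averaged 39.2 and 16.7 CPM, and 28.8 and 34.1 CPM. In footprints, among 10210 genes, they were Psd4 (0.893), Elmo2 (0.889), Tifab (0.873), Rin3 (0.870), Usp19 (0.861), Tgfbrap1 (0.858), Mfsd14b (0.851) and Emilin1 (0.850). With group means removed, r fell to 0.0938 to 0.424 for the mRNA genes and 0.368 to 0.716 for the footprint genes, so the likeness in mRNA lies mostly between groups. No gene was named in both library kinds. Library depth and group are shared by all points of these correlations.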

How the data were processed

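The authors deposited 2 tables of whole-number read counts per gene, 1 for mRNA and 1 for ribosome footprints, with no normalization, per the labels and the values. Tools listed in the submitters' processing notes are featureCounts, STAR, Bowtie2, cutadapt and SAMtools, with the build GRCm38 (mm10). How reads that match several genes, or either strand, were counted is not given in the sources used here. Of 55487 identifiers, 99.4% had a symbol. Members and gene lists were chosen with earlier results of these data known. Counts were tested with edgeR 4.0.16 (R 4.3.3): TMM scaling, filterByExpr with a minimum count of 10 and total of 15, robust quasi-likelihood fit over all 4 groups of a kind, and Benjamini-Hochberg adjustment over all genes tested. Translational efficiency was tested as the group by kind interaction in all 42 libraries, blocked on mouse. Globin shares are log2 of summed counts plus 0.5 over the library total; a permutation test planned for them is not reported, because the members were chosen with these shares known. Correlations used 100000 permutations of mice within groups. Named list genes are, per list and comparison, the 4 with the smallest adjusted p past 0.05, or else the 2 with the highest mean, which are given only where the text describes them; Retnlg, Camp, Klf1, Gata1, Epor, Car1, Nkg7 and Cd5l were chosen after their values were seen. Genes most like the members needed a mean of 1 CPM, and unnamed models and pseudogenes were left out. Alternatives were DESeq2 1.42.0, median-ratio scaling, no filter, a replicate block and leaving out mice. Some genes counted in the lists are not reported here by name. The code was tested on simulated data. Libraries of different mice are the replicates.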

Additional observations from a re-analysis of the deposited data

Results flagged for a closer look

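Among 56 groups of values looked at for a sample far from the others (6 members and the globin sum, 4 groups, both library kinds), 2 held one, where chance gives about 5% of groups. Alas2 mRNA in BCAA-free vehicle replicate 5 was 2.96 CPM, with the next mouse at 1.10. That library is 1 of the 4 that stood apart, and it held 1 read of Slc4a1. Hba-a2 mRNA in BCAA-free 5+3 replicate 3 was 0.668 CPM, with the next at 0.153. The neutrophil markers were also highest of that group in this mouse, at 1164 CPM.

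The change after 5+3 differed between the diets by the interaction term in 9 cases. In mRNA the log2 differences (BCAA-free minus AA) were -7.47 for Hbb-bt, -7.39 for Hba-a2, -6.86 for Hba-a1 and -6.65 for Hbb-bs. In footprints they were -4.59 for Slc4a1, -4.02 for Hbb-bt, -3.84 for Hbb-bs, -3.50 for Hba-a1 and -3.41 for Hba-a2, and the values of a copy pair are close to each other in footprints. The members were chosen on the BCAA-free part of this term.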

How the results depend on the processing

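The differences in globin share between groups kept their direction and stayed within 1 SD of their value under every alternative run. These included 1 count added, TMM-scaled totals and totals without ribosomal, mitochondrial and pseudogene rows. They also included, chosen after seeing the data, 1 copy of each pair. Leaving out each mouse gave log2 shares of 1.12 to 1.94 in mRNA and 0.30 to 0.80 in footprints for 5+3 on the AA diet, and -5.89 to -5.34 and -3.42 to -3.11 on the BCAA-free diet. Counts of red cell list genes were less stable. For mRNA after 5+3 on the BCAA-free diet the 8 calls became 0 without the 4 libraries apart, with only 2 vehicle mice then left. They became 2 to 13 when single mice were left out, 13 being without BCAA-free 5+3 replicate 3. With all mice, DESeq2 made 11 calls in this comparison, of which 4 were higher and 7 lower. For mRNA between diets with 5+3 the 1 call became 3 with DESeq2, 2 without the 4 libraries, and 0 to 3 without single mice. For footprints, leaving out single mice of the groups compared gave 3 to 6 for 5+3 on the AA diet (7 with all mice), 3 to 6 on the BCAA-free diet (5) and 5 to 8 between diets with 5+3 (8). Since all groups share the fit, leaving out BCAA-free 5+3 replicate 3 also moved the AA count, to 8. Without a filter the BCAA-free footprint count was 9, of which 1 was higher and 8 lower. Alas2 mRNA on the AA diet, at -0.01, changed sign with median-ratio scaling (0.0153), no filter (0.00255), DESeq2 (0.0200), the replicate block (0.79), without the 4 libraries (0.0137) and when single mice were left out (-0.31 to 0.46). Slc4a1 translational efficiency on the AA diet ran from -0.14 to 0.56 without single mice. Where the cause of a change is not given by fewer mice or genes, it was not tested. Replicate numbers did not pair the mice: deviations of same-numbered mice correlated from -0.44 to 0.46 in mRNA and -0.22 to 0.41 in footprints. With the replicate block, the mRNA list count was 0 between diets with 5+3, and after 5+3 on the BCAA-free diet it was 7, of which 5 were higher and 2 lower, in place of 2 and 6. Footprint depth left Alas2 and 36 of the other 72 red cell genes with a row untested.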

Other observations

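The carbonic anhydrase Car1, abundant in red cells and their precursors, varied most in the group where the globins were lowest. Its footprints averaged 0.711 ± 0.596 CPM in AA vehicle, 0.790 ± 0.683 in AA 5+3, 3.85 ± 1.41 in BCAA-free vehicle and 2.43 ± 5.04 in BCAA-free 5+3 mice. In the last group 1 mouse, replicate 3, held 104 of its footprints and 334 of its mRNA reads, and the summed globins of that mouse were 7.35 CPM in mRNA and 23.4 CPM in footprints, below every BCAA-free vehicle mouse. Without that mouse, Car1 and Car2 footprints were called lower after 5+3 on the BCAA-free diet, and 6 red cell list genes were called in place of 5.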
